A study of Mus musculus with 73 samples.

Results

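Microglia of 4-month-old 5xFAD mice that lacked CD33 were set against microglia of 4-month-old 5xFAD mice that lacked TREM2. Microglia are the resident immune cells of the brain. The comparison used 8 of the 73 libraries of the series, 4 labelled 5xFAD;CD33-/- (CD33 knockouts, replicates 1, 2, 3 and 4) and 4 labelled 5xFAD;TREM2-/- (TREM2 knockouts, replicates 1, 3, 7 and 9). They were chosen by genotype and age, and the 2 double knockout libraries of that age were left out. All mice were C57BL/6. All 8 libraries carry the 5xFAD transgenes, mutant human amyloid precursor protein and presenilin genes driven by the neuronal Thy1 promoter, so amyloid forms in both groups. The reference levels come from 9 5xFAD and 7 WT libraries of the same age. Cells were sorted by CD11b and CD45, which other myeloid cells also carry. The labels give neither the construction of the null alleles nor whether each library is a separate animal, so the p-values measure the spread between these libraries, which may in part be technical.

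CD33 is a sialic acid-binding lectin of the Siglec family whose cytoplasmic tail carries inhibitory motifs that recruit the phosphatases SHP-1 and SHP-2. TREM2 binds lipids and lipoproteins and signals through the adaptor TYROBP, also called DAP12, to the kinase SYK. Microglia near amyloid plaques take on a disease-associated microglia (DAM) state, in which a first set of genes changes without TREM2 and a later set needs it.

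The deleted genes came first. On GRCm38, Cd33 (ENSMUSG00000004609, chromosome 7, 43524216 to 43544428) was at 0.205, 0.0526, 0.0617 and 0.102 RPKM (reads per kilobase of gene, scaled to library size) in the CD33 knockout libraries in order of replicate, and at 189, 155, 146 and 146 in the TREM2 knockout libraries. Trem2 (ENSMUSG00000023992, chromosome 17, 48346401 to 48354147) was at 844, 775, 704 and 727 RPKM in CD33 knockouts and at 31.1, 36.3, 32.6 and 29.2 in TREM2 knockouts. Each gene was low only in the libraries labelled with its own deletion, and Trem2 kept a residual level there. Recovered read totals of the 8 libraries ran from 31665061 to 41959922. Microglial identity genes such as P2ry12, Tmem119 and Csf1r were abundant throughout, with the summed RPKM of 12 such genes between 17570 and 22320 in CD33 knockouts and between 20630 and 23700 in TREM2 knockouts.

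Libraries stood apart in 2 ways. Endothelial markers (8 of 8 in the table and tested, among them Cldn5 and Flt1) summed to 739 and 764.8 RPKM in CD33 knockout replicates 2 and 3, to 293 and 321 in replicates 4 and 1, and to between 162.5 and 378 in TREM2 knockouts. Oligodendrocyte markers were likewise highest in the same pair of libraries, with 223 and 206 in CD33 knockout replicates 2 and 3, 137.9 and 105.1 in replicates 1 and 4, and between 88.3 and 101.7 in TREM2 knockouts. Values from a fit with an endothelial covariate are given for the total count and for the stage 2 DAM, interferon-response and homeostatic genes. They are not given for the other gene lists. The part of the oligodendrocyte markers was not tested. In addition, CD33 knockout replicate 2 and TREM2 knockout replicate 9 held both Xist and Y-linked reads, while each group had 1 library with Y-linked reads alone and 2 with Xist alone. In the titles these 2 libraries also share the number GAa10, the only such number that both genotypes have, and they are called the GAa10 pair.

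**Figure D1:**
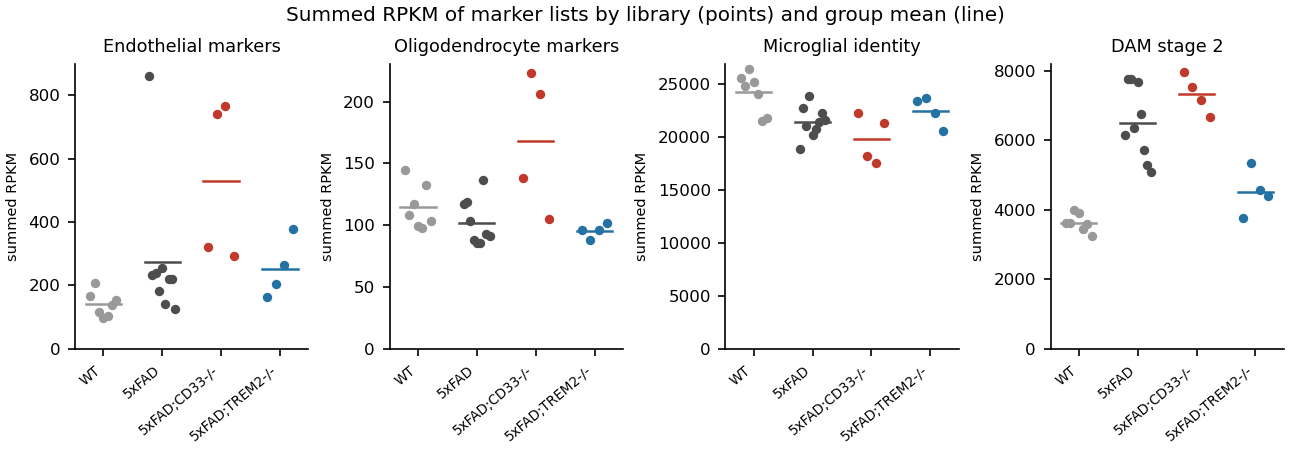
Summed RPKM of 4 marker lists in each library (points) of the 4 genotypes at 4 months, with the group mean as a line. Endothelial markers reach 739 and 764.8 in a pair of CD33 knockout libraries, while the stage 2 DAM sums of all 4 CD33 knockout libraries (6665 to 7960) lie above those of all 4 TREM2 knockout libraries (3778 to 5359).

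Of 12376 genes tested with limma on log2(RPKM + 0.5), 1970 (15.9%) passed an adjusted p of 0.05, with Benjamini-Hochberg adjustment over all genes tested. In CD33 knockouts, 834 genes (6.74% of those tested) were higher and 1136 (9.18%) lower than in TREM2 knockouts. Large differences were mostly in 1 direction: 201 genes (1.62%) were at least 2-fold higher in CD33 knockouts and 32 (0.259%) at least 2-fold lower. The groups did not overlap for 617 of the genes called higher and 735 of those called lower, and in these directions for 834 and 1176 of all 12376 genes tested. Single libraries moved these counts. Without CD33 knockout replicate 2 or 3, the libraries rich in endothelial markers, 775 and 807 genes passed, and without CD33 knockout replicate 4, whose DAM genes were lowest of its group, 3076 passed. Without TREM2 knockout replicate 1 the count was 1207. Leaving out the GAa10 pair gave 562, of which 561 were among the 1970. With a covariate for endothelial markers 525 passed, 312 higher and 213 lower. In the GAa10 pair alone, 1 library of each genotype, all 834 genes called higher were higher in the CD33 knockout library and 1135 of the 1136 called lower were lower, although both libraries had a part in the calls. Of all genes, 45.4% were higher in that CD33 knockout library.

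Set beside the reference groups, with no test, 5xFAD lay between the knockouts for most called genes. Its mean was between theirs for 761 of the 834 genes higher in CD33 knockouts (91.2%) and for 1084 of the 1136 lower (95.4%), against 55.1% of all genes tested; choosing genes for a difference between the knockouts itself raises that share. Among genes higher in CD33 knockouts, the median log2 difference from 5xFAD was 0.264 in CD33 knockouts and -0.294 in TREM2 knockouts. Among the 201 with at least a 2-fold difference it was 0.617 and -0.759. Of the 834, 768 were also higher in 5xFAD than in WT. For genes lower in CD33 knockouts the medians were -0.241 in CD33 knockouts and 0.131 in TREM2 knockouts.

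Genes of the stage 2 DAM programme made up much of the top of the comparison. Of 25 listed genes, all tested, 23 were higher in CD33 knockouts and 0 lower (median log2 difference 1.107, against -0.050 over all genes tested). Cst7, which encodes the protease inhibitor cystatin F, was at 869.7, 928, 926 and 513 RPKM in CD33 knockouts and at 38.3, 130.2, 76.9 and 80.1 in TREM2 knockouts. Its level was 524 ± 202 in 5xFAD and 8.35 ± 0.913 in WT. The groups did not overlap, and the log2 difference was 3.39 ± 0.337, adjusted p = 6.91e-07. Axl, a receptor tyrosine kinase of phagocytosis, was at 107, 85.9, 83.2 and 63.9 RPKM in CD33 knockouts against 4.61, 11.1, 8.22 and 8.38 in TREM2 knockouts (3.35 ± 0.343, adjusted p = 1.11e-06). Itgax, which encodes CD11c, was at 76.2, 101, 76.4 and 50.8 against 6.49, 15, 9.22 and 10.9 (2.83 ± 0.323, adjusted p = 5.55e-06). For Axl and Itgax every TREM2 knockout library was above the WT means (3.77 and 5.58 RPKM) and every CD33 knockout library above the 5xFAD means (58.7 and 48.9). The ranges overlapped, however. TREM2 knockout replicate 1 lay below the highest WT library for both genes (4.665 and 6.545). CD33 knockout replicates 2, 3 and 4 for Axl, and replicate 4 for Itgax, lay below the highest 5xFAD library (94.7 and 75.1). Lipoprotein lipase, Lpl, was 49.3 to 61.1 RPKM in CD33 knockouts and 7.69 to 11.1 in TREM2 knockouts (2.50 ± 0.212, adjusted p = 4.53e-08). The β-glucan receptor Clec7a was 98.1 to 176 in CD33 knockouts and 17.9 to 32.6 in TREM2 knockouts (2.38 ± 0.249, adjusted p = 1.52e-06). Ctsl and Ctsa were the listed genes that did not pass. Without the GAa10 pair, 19 of the 25 passed, and with the endothelial covariate 20, none of them lower in either case. In bulk RNA, fewer cells in the DAM state and less DAM RNA per cell cannot be told apart.

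**Figure D2:**
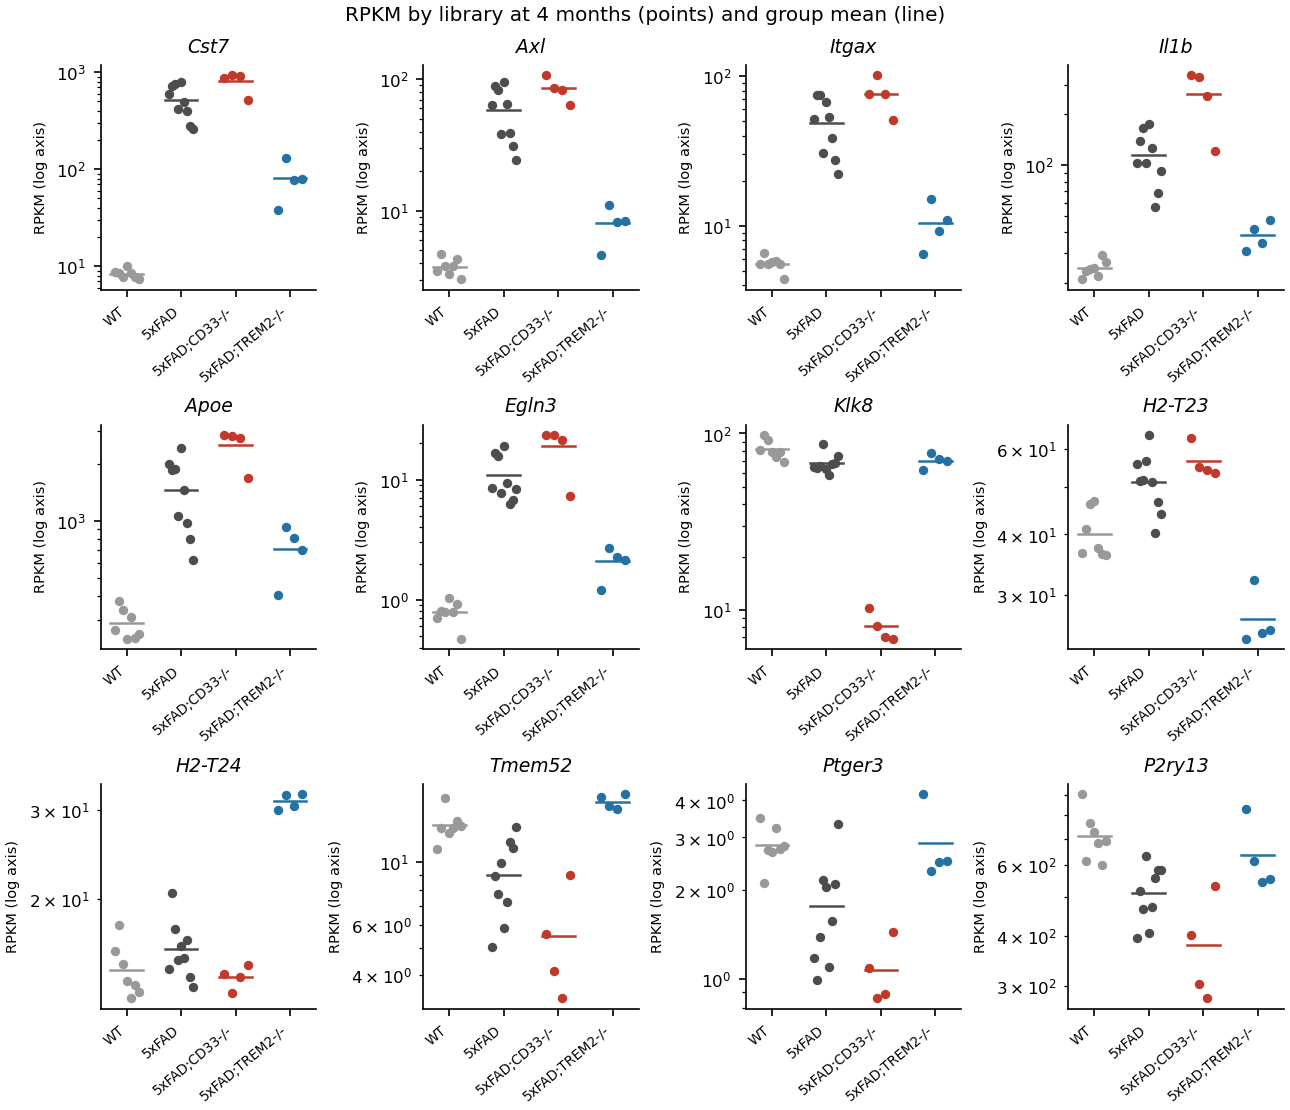
RPKM on a log axis of 12 genes in each library (points) of the 4 genotypes, with the group mean as a line. Cst7, Axl, Itgax, Il1b, Apoe and Egln3 show every CD33 knockout library above every TREM2 knockout library, while Klk8 is low only in CD33 knockouts and H2-T24 is raised only in TREM2 knockouts.

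Other genes among the 12 largest differences in this direction lie outside the DAM lists. Egln3, an oxygen-sensing prolyl hydroxylase that is itself induced by hypoxia, was at 23.5, 23.3, 21.3 and 7.27 RPKM in CD33 knockouts and 1.19, 2.7, 2.29 and 2.16 in TREM2 knockouts (2.81 ± 0.343, adjusted p = 1.38e-05). CD33 knockout replicate 4 was low for its group and still above all TREM2 knockout libraries. The leucine-rich secreted protein gene Lgi2 was 2.97 to 6.82 RPKM against 0.0845 to 0.5695 (2.58 ± 0.385, adjusted p = 0.000114). Pianp was 2.87 to 8.19 against 0.31 to 0.555 (2.65 ± 0.328, adjusted p = 1.45e-05). Lox, the lysyl oxidase that cross-links collagen, was 2.21 to 5.03 against 0.181 to 0.343 (2.42 ± 0.306, adjusted p = 1.78e-05).

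Promoters of 3 of these genes are shown as examples, picked after the search, of windows of strongly differing genes that hold a searched motif. They are from RefSeq on GRCm38.p6, 250 bases before to 50 after the start, and 8 of the 12 genes had an entry that could be shown. The 4 motifs searched on both strands were TGANTCA (AP-1), GAGGAAGT (PU.1), CACGTG (E-box of the TFE and MITF factors) and ACGTG (hypoxia response core, which overlaps the E-box). Capitals mark the matches. In the AP-1 search N stood for any base, and the middle base of the 2 matches differed. They were TGATTCA in Cst7 (chr2:150570165-150570464, plus strand) and TGAGTCA in Itgax (chr7:128129300-128129599, plus strand). Egln3 (chr12:54203825-54204124, minus strand) held a hypoxia response core.
Cst7: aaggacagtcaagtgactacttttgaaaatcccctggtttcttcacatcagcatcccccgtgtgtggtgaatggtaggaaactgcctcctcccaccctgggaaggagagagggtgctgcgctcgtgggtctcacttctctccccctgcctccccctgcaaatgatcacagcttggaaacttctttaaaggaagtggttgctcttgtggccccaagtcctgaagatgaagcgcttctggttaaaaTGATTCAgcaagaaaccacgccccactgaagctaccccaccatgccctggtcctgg
Itgax: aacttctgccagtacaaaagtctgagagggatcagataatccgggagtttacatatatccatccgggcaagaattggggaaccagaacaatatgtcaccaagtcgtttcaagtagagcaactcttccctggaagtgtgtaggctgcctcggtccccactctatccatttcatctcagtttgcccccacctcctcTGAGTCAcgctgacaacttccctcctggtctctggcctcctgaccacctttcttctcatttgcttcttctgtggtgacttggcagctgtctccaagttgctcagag
Egln3: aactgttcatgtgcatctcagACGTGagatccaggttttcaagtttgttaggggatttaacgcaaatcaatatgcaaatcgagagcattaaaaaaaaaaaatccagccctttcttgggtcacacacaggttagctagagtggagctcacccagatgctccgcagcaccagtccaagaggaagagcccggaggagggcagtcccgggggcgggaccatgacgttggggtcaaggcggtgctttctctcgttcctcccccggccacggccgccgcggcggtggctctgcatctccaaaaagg
The searched AP-1 letters, with any middle base, were in 12.2% of 181 promoters of genes at least 2-fold higher in CD33 knockouts. They were in 4.93% of 10809 promoters of all genes tested. The hypoxia response core was in 17.7% and 25.6%, the PU.1 motif in 5.52% and 3.3% and the E-box in 6.08% and 10%. Pianp, with 3 annotated starts, had a hypoxia response core in the window of 1 start and a PU.1 motif in that of another. The windows of Axl, Il1b, Lgi2 and Clec7a held none of the 4 motifs. These shares are descriptions of letters, with no test.

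Genes of the first DAM stage were also higher in CD33 knockouts, by smaller amounts. All 9 listed genes passed and all were higher (median 0.620). Apoe, the main lipid carrier of the brain, was at 2843, 2797, 2746 and 1685 RPKM in CD33 knockouts and 407, 932, 815 and 701 in TREM2 knockouts, with 1450 ± 619 in 5xFAD and 288 ± 53.9 in WT. The groups did not overlap (1.85 ± 0.344, adjusted p = 0.00118), and CD33 knockout replicate 4 lay nearer to 5xFAD than to the other libraries of its group. Lyz2, the lysozyme of macrophages, was at 783, 770.0, 746 and 559.6 against 282, 412, 355 and 329 (1.05 ± 0.198, adjusted p = 0.00122). Ctsd, an aspartyl protease of the lysosome, was 11480 to 13430 against 6854 to 9784 (0.62 ± 0.122, adjusted p = 0.00177). Without the GAa10 pair 7 of the 9 passed. The TREM2 adaptor Tyrobp belongs to this list and was at 3758, 3542, 3472 and 3180 in CD33 knockouts and 1916, 2896, 2585 and 2232 in TREM2 knockouts (0.55 ± 0.12, adjusted p = 0.00412), with 3346 ± 421 in 5xFAD and 2143 ± 178 in WT.

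Lipid genes moved in both directions. Of 20 tested genes of lipid storage and efflux, 9 were higher in CD33 knockouts and 2 lower (median 0.428). Besides Lpl and Apoe, the higher ones included Ch25h, which makes 25-hydroxycholesterol, at 15.7, 14.8, 20.6 and 11.4 RPKM against 1.44, 2.91, 3.45 and 3.94 (2.27 ± 0.372, adjusted p = 0.000372), and the fatty acid-binding protein gene Fabp5 at 2.49, 3.67, 3.84 and 2.18 against 0.743, 1.09, 0.722 and 0.993 (1.33 ± 0.211, adjusted p = 0.000224). The cholesterol efflux transporter Abcg1 went the other way, with 48.8, 33.5, 38 and 52.9 RPKM in CD33 knockouts and 64.6, 66.4, 70.7 and 66.9 in TREM2 knockouts (-0.65 ± 0.0915, adjusted p = 6.12e-05). Abcg1 lies on chromosome 17, 17.2 Mb from Trem2, and its TREM2 knockout values were above those of all other libraries (5xFAD mean 49.8, WT mean 50.8). Cholesterol synthesis and uptake genes were higher where they passed, 8 of 16 tested and 0 lower (median 0.403). The sterol synthesis enzyme Cyp51 was at 5.14, 6.1, 6.1 and 5.31 RPKM in CD33 knockouts and 3.36, 2.69, 3.26 and 3.22 in TREM2 knockouts (0.76 ± 0.109, adjusted p = 6.85e-05), and the transcription factor Srebf2, which drives these genes, was higher as well (0.65 ± 0.117, adjusted p = 0.000823).

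Of 18 glycolysis genes tested, 10 were higher in CD33 knockouts and 1, the fructose transporter Slc2a5, lower (median 0.398). Tpi1 was at 70.1, 74.4, 70.8 and 58.5 RPKM in CD33 knockouts and 30.7, 49.1, 42.4 and 37 in TREM2 knockouts (0.79 ± 0.141, adjusted p = 0.00079), and the differences of Pkm (0.63), Pgk1 (0.68) and Gpi1 (0.53) were of like size on the log2 scale. Without the GAa10 pair, 4 of 17 were higher and 1 lower. In that fit 562 of all 12255 genes tested passed, against 1970 of 12376 as reported. Of 19 oxidative phosphorylation genes 2 were higher (median 0.090), 10.5% called against 15.9% of all genes tested. Of 22 lysosomal genes 12 were higher and 0 lower (median 0.242). Npc2, which moves cholesterol out of lysosomes, was at 456, 401, 405 and 354 against 236, 298, 282 and 248 (0.60 ± 0.104, adjusted p = 0.000588), and the tetraspanin Cd63 at 176, 173, 159.6 and 149 against 83.3, 131, 101 and 93.6 (0.70 ± 0.142, adjusted p = 0.0023). The count of lysosomal genes was 7 without the GAa10 pair. Of 17 ribosomal protein genes 8 were higher and 0 lower (median 0.354).

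Interferon-response genes were higher in CD33 knockouts in 17 of 24 cases, with 0 lower (median 0.834). Ifi27l2a was at 102, 110.3, 147 and 85.8 RPKM in CD33 knockouts and 13.7, 37.8, 29.6 and 29.5 in TREM2 knockouts (2.05 ± 0.383, adjusted p = 0.00121). Of its CD33 knockout values 3 lay above and 1 below the 5xFAD mean of 95.7, and the TREM2 knockout values lay between that and the WT mean of 13.6. The DNA sensor Ifi204 was at 12.4, 11, 10.6 and 7.15 against 2.67, 4.21, 3.12 and 3.16 (1.50 ± 0.264, adjusted p = 0.000775). The RNA sensor Oas1a (1.40 ± 0.259, adjusted p = 0.00117) and Usp18, which removes ISG15 and dampens interferon signalling (1.29 ± 0.272, adjusted p = 0.00331), differed in the same direction. The count depended on single libraries: 11 passed without CD33 knockout replicate 2, 8 without replicate 3, 9 without TREM2 knockout replicate 1, 20 without CD33 knockout replicate 4, and 5 with the endothelial covariate or without the GAa10 pair. Over the 12255 to 12376 genes tested in these fits, 775, 807, 1207, 3076, 525 and 562 passed, in the same order, against 1970 as reported.

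Of 13 antigen presentation genes of class I, 5 were higher and 0 lower (median 0.587). B2m, the light chain shared by class I molecules, was at 3208, 2876, 3035 and 2553 RPKM in CD33 knockouts and 1767, 1849, 1790 and 1681 in TREM2 knockouts (0.72 ± 0.125, adjusted p = 0.000657). The non-classical gene H2-T23 was at 63.3, 55.2, 54.2 and 53.5 against 24.4, 32.2, 25.1 and 25.4 (1.07 ± 0.119, adjusted p = 2.64e-06), with 51.4 ± 7.16 in 5xFAD and 40.2 ± 4.6 in WT, so that the TREM2 knockout libraries lay below WT too. H2-M3 followed the same order, 43.1, 36.2, 37.1 and 40.1 against 19.2, 24.9, 20.6 and 19.7 (0.88 ± 0.13, adjusted p = 0.000106), with a WT mean of 26.6. Both genes lie on chromosome 17, as Trem2 does, and reads of near-identical class I genes may be split between them. Of 7 class II genes 1 was higher, H2-Oa (0.58 ± 0.115, adjusted p = 0.00197). That is 14.3% called, near the 15.9% of all genes tested.

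Cytokine genes diverged most in Il1b, the inflammatory cytokine interleukin-1β. It was at 341, 334, 256 and 121 RPKM in CD33 knockouts and 31, 42, 34.6 and 47.5 in TREM2 knockouts (2.65 ± 0.309, adjusted p = 7.05e-06), with 115 ± 41 in 5xFAD and 24.5 ± 2.8 in WT. The first 3 CD33 knockout libraries lay above the highest 5xFAD library, 175 RPKM, and replicate 4 was within the 5xFAD range. The gene of the receptor antagonist that blocks it, Il1rn, differed likewise, 5.52, 6.89, 6.68 and 2.72 against 0.426, 0.908, 0.828 and 0.963 (2.17 ± 0.283, adjusted p = 2.44e-05). Of 14 interleukin-1 and inflammasome genes tested 3 were higher and 2 lower. Of 13 chemokine genes 6 were higher and 0 lower. Cxcl1, a neutrophil chemoattractant, was at 10.9, 17.7, 21 and 6.51 RPKM in CD33 knockouts and 1.59, 2.39, 2.71 and 4.15 in TREM2 knockouts (2.11 ± 0.332, adjusted p = 0.000241). Cxcl2 (1.97 ± 0.381, adjusted p = 0.00162), Ccl6 (1.11 ± 0.165, adjusted p = 0.000112) and Cxcl16 (0.96 ± 0.18, adjusted p = 0.00118) were higher too, while Ccl2, Ccl3 and Ccl4 did not pass (0.32, 0.26 and 0.29 on the log2 scale). Of 14 NF-κB response genes 4 were higher and 0 lower; Ptgs2, the inducible cyclooxygenase, was at 41.9, 46.4, 42.1 and 16.2 RPKM against 8.19, 9.71, 9.97 and 14.7 (1.66 ± 0.312, adjusted p = 0.00125) and Tnfaip2 at 30.6, 33.4, 19 and 14.1 against 7.08, 9.86, 8.37 and 11.2 (1.30 ± 0.241, adjusted p = 0.00118). Of 14 immediate early and dissociation genes 1 was higher (7.14%, against 15.9% of all genes tested called), and 0 of 10 heat shock genes passed.

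Among relatives of the deleted genes, those next to Trem2 differed in both directions. In the TREM family 6 genes and adaptors were tested, with 4 higher, Trem2 itself among them, and 2 lower. Treml2 was at 12.5, 10.2, 10.5 and 10.6 RPKM in CD33 knockouts and 1.81, 2.79, 2.46 and 2.28 in TREM2 knockouts (2.02 ± 0.137, adjusted p = 6.43e-10), below its WT mean of 5.66. Treml4 and Treml1 were higher in TREM2 knockouts. Treml4 rested on 11, 11, 22 and 1 reads in CD33 knockouts and on 217, 267, 198 and 213 in TREM2 knockouts (2.83, 3.71, 2.93 and 2.84 RPKM, adjusted p = 2.33e-08), and it passed the filter on low values only through the TREM2 knockout libraries. Treml1 was at 0.353, 0.456, 0.255 and 0.61 RPKM in CD33 knockouts and 1.52, 1.55, 1.72 and 2.02 in TREM2 knockouts (-1.27 ± 0.216, adjusted p = 0.000484). Hcst, an adaptor also called DAP10, was higher in CD33 knockouts (0.65 ± 0.149, adjusted p = 0.00548). Of 7 Siglec genes tested, Cd22, a B-cell inhibitory Siglec that ageing microglia also express, was at 10.8, 10.7, 10.3 and 10.2 against 3.3, 5.73, 5.05 and 4.81 (1.10 ± 0.215, adjusted p = 0.0018). Siglech, a Siglec of microglia, was lower in CD33 knockouts, 506, 416, 406 and 492 against 688, 594, 558 and 549 (-0.39 ± 0.0914, adjusted p = 0.00612). Of 18 signalling genes 3 were higher and 5 lower (median -0.131), but none was lower without CD33 knockout replicate 2 or without replicate 3. Over all genes tested, 376 and 400 were lower in those fits, against 1136 as reported.

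Of 17 phagocytic and scavenger receptor genes tested 4 were higher in CD33 knockouts and 2 lower (35.3% called, median 0.045). Tlr2, which senses bacterial lipopeptides, was at 219, 212, 159 and 126 RPKM in CD33 knockouts and 70.5, 83.8, 71.7 and 90.7 in TREM2 knockouts (1.15 ± 0.194, adjusted p = 0.000484), and the endotoxin co-receptor Cd14 was higher (0.71 ± 0.13, adjusted p = 0.00101). The scavenger receptor Stab1 was lower, 108, 88.3, 90.0 and 131 against 147, 162, 162 and 175 (-0.64 ± 0.115, adjusted p = 0.000818). Of 11 complement genes 1 was higher and 1 lower (18.2% called, near the 15.9% of all genes tested). Of 15 growth factor and matrix genes 8 were higher and 2 lower (median 0.602). Igf1, insulin-like growth factor 1, was at 4.76, 6.39, 6.02 and 3.12 RPKM in CD33 knockouts and 0.716, 1.07, 0.884 and 0.768 in TREM2 knockouts (2.00 ± 0.261, adjusted p = 2.44e-05), and the protease inhibitor Serpine2 was higher as well (0.60 ± 0.111, adjusted p = 0.00101). Heparanase, Hpse, was at 7.35, 4.85, 3.91 and 2.09 against 0.422, 0.881, 0.885 and 0.885 (1.90 ± 0.389, adjusted p = 0.00246). Of 12 cell cycle genes 4 were higher and 1 lower, with Ccnb2 at 2.77, 2.5, 3.53 and 2.17 against 0.786, 1.14, 1.27 and 1.66 (0.93 ± 0.198, adjusted p = 0.00352) and Cdk1 (0.82 ± 0.147, adjusted p = 0.000797) and Top2a (0.67 ± 0.145, adjusted p = 0.00363) in the same direction.

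Of 20 homeostatic microglial genes tested, 11 were lower in CD33 knockouts and 0 higher (median -0.390), and of the 12 identity genes 8 were lower. The purinergic receptor gene P2ry13 was at 400.4, 303, 278 and 533 RPKM in CD33 knockouts and 829.5, 616, 546 and 554 in TREM2 knockouts (-0.77 ± 0.183, adjusted p = 0.0067), with 513 ± 83.6 in 5xFAD and 711 ± 103 in WT. Slc2a5 was at 187, 152, 144 and 209 against 270.0, 265, 244 and 240.1 (-0.57 ± 0.117, adjusted p = 0.00242). Sall1, a transcription factor of microglial identity, was at 112, 87.8, 89.4 and 152 against 178, 157, 149.9 and 155 (-0.57 ± 0.124, adjusted p = 0.00402), and here CD33 knockout replicate 4 overlapped the TREM2 knockout range. Among the 8 libraries, CD33 knockout replicates 2 and 3 had the highest endothelial and oligodendrocyte markers and the lowest values of all 3 genes. Without either of them 5 of the 20 passed, with the endothelial covariate 2, and without CD33 knockout replicate 4, 15. With only the 8 libraries in the fit 2 passed. Over the 11634 to 12376 genes tested in these fits, the calls were 775 without replicate 2 and 807 without replicate 3. They were 525 with the endothelial covariate, 3076 without replicate 4 and 726 with only the 8 libraries, against 1970 as reported. P2ry13 and Siglech missed the threshold with the endothelial covariate (adjusted p = 0.0813 and 0.0689).

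The 12 largest differences in the other direction were genes of low or moderate level. Tmem52, a transmembrane protein gene, was at 5.6, 4.16, 3.32 and 9 RPKM in CD33 knockouts and 16.9, 15.7, 15.3 and 17.2 in TREM2 knockouts (-1.57 ± 0.248, adjusted p = 0.000264). Gpr165, an orphan receptor gene, was at 4.32, 3.83, 3.88 and 6.76 against 14.7, 10.3, 10.8 and 10.6 (-1.24 ± 0.23, adjusted p = 0.00118). Ptger3, a receptor for prostaglandin E2, was at 1.08, 0.858, 0.89 and 1.44 against 4.19, 2.31, 2.48 and 2.5 (-1.09 ± 0.228, adjusted p = 0.00297). The groups did not overlap. The WT means of these 3 genes were 13.5, 14.6 and 2.83, and the 5xFAD means were 9, 7.83 and 1.76. P2rx1, an ATP-gated channel gene, was at 4.44, 2.69, 2.15 and 7.74 against 8.78, 8.33, 7.88 and 8.29 (-1.03 ± 0.219, adjusted p = 0.00337), and was not called with only the 8 libraries in the fit (adjusted p = 0.0822). Immunoglobulin genes and a lymphocyte receptor were in this set: Ighg2b was at 0.262, 0.509, 0.382 and 0.203 RPKM in CD33 knockouts and 6.12, 5.73, 3.95 and 1.28 in TREM2 knockouts (-2.35 ± 0.565, adjusted p = 0.00757), and Klrd1, the CD94 of natural killer cells, at 0.617, 0.505, 0.265 and 0.477 against 3.65, 1.19, 1.49 and 1.83 (-1.32 ± 0.293, adjusted p = 0.0045). Ighg2b was at 8.77 in 5xFAD replicate 1, with a 5xFAD median of 0.346 and a WT maximum of 0.925. Klrd1 averaged 1.28 in 5xFAD and 2.4 in WT. The summed RPKM of 6 natural killer markers was 0.536 to 1.33 in CD33 knockouts and 1.53 to 3.73 in TREM2 knockouts, that of 9 T cell markers 0.575 to 1.1 and 0.445 to 1.23. In 5xFAD the natural killer sum was 1.09 to 3.02, and in WT 2.07 to 3.4. Klrd1 is in the natural killer sum and was the only 1 of those 6 markers to pass the filter on low values. B cell markers summed to 271.5 to 398.9 in CD33 knockouts and 400.9 to 418.9 in TREM2 knockouts. Only 2 of the 7 passed the filter, and these 2 were called lower in CD33 knockouts. The same sum was 365.5 to 447.7 in 5xFAD and 363.1 to 436.8 in WT, and the TREM2 knockout sums lay within both ranges. CD33 knockout replicates 2 and 3, at 271.5 and 282.3, lay below both ranges. Replicates 1 and 4, at 368.1 and 398.9, lay within them. The part of lymphocytes in these differences was not tested.

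Small RNA and joining-segment genes complete the set. Snora28, a small nucleolar RNA gene, was at 5.11, 3.42, 7 and 2.77 RPKM in CD33 knockouts and 18.7, 8.55, 9.11 and 19.5 in TREM2 knockouts (-1.49 ± 0.35, adjusted p = 0.00681), and without the GAa10 pair its log2 difference was -1.20 (adjusted p = 0.0902). Ighj2 (-1.36 ± 0.44, adjusted p = 0.0385), Ighj3 (-1.16 ± 0.357, adjusted p = 0.0305), the small nucleolar RNA gene Snord65 (-1.08 ± 0.346, adjusted p = 0.0364) and Mir23a (-1.41 ± 0.462, adjusted p = 0.0408) lost their calls under 8 to 13 of 21 alternatives. Leaving out 1 library ended the call of Mir23a for 7 of the 8 libraries, of Ighj2 and Snord65 for 6 each and of Ighj3 for 3 (adjusted p up to 0.182, 0.121, 0.0964 and 0.117). Mature small RNAs lack the poly(A) tails that the library kit selects.

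Markers of other cells were counted beside these results. Of 8 oligodendrocyte genes 7 were higher in CD33 knockouts (median 0.930) and 1 of 8 endothelial genes (median 1.015). Mobp, a myelin gene, was at 3.47, 6.58, 6.34 and 2.22 RPKM in CD33 knockouts and 2.11, 1.81, 1.95 and 1.81 in TREM2 knockouts (0.98 ± 0.247, adjusted p = 0.00989). Without CD33 knockout replicate 2 none of the 8 oligodendrocyte genes passed (Mobp 0.79, adjusted p = 0.0607), nor without replicate 3 (Mobp 0.81, adjusted p = 0.0579). The endothelial gene Flt1 was at 32.6, 77.8, 73.9 and 28 RPKM in CD33 knockouts and 13.6, 14.8, 21.5 and 31.8 in TREM2 knockouts (1.29 ± 0.43, adjusted p = 0.0437). The groups overlapped for Flt1, which was not called without CD33 knockout replicate 2 (1.06, adjusted p = 0.166) or 3 (1.08, 0.161) or without TREM2 knockout replicate 1 (1.13, 0.127), 3 (1.17, 0.107) or 7 (1.34, 0.0657). Mural cell markers gave 1 of 5 higher. Astrocyte (6 tested), ependymal and choroid (6), neuronal (1), erythrocyte (4), monocyte (4) and neutrophil (7) markers gave no call, and neither did 7 mitochondrially encoded genes. Of 9 markers of border-associated macrophages 1 was lower, which was Stab1. The shares called were 12.5% of endothelial, 20% of mural cell and 11.1% of border-associated macrophage markers, near the 15.9% of all genes tested. Beside these marker levels, stage 2 DAM sums were 7960 in CD33 knockout replicate 1, 7548 in replicate 2, 7168 in replicate 3 and 6665 in replicate 4.

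The neighbourhoods of the deleted genes held a larger share of calls than the rest of the genome, which is given with no test. Within 10 Mb of Cd33, 34 of 127 tested genes passed (26.8%), within 10 Mb of Trem2 35 of 137 (25.5%), and elsewhere 1899 of 12110 (15.7%). Closest to Trem2, within 1 Mb, 13 of 22 passed (59.1%), and within 1 Mb of Cd33 6 of 21 (28.6%). The 5 genes with the largest differences within 10 Mb were Klk8, Treml4, Slc6a16, Tnfsf9 and Vegfa. Klk8, a serine protease gene 0.253 Mb from Cd33, was at 10.3, 8.15, 7.02 and 6.86 RPKM in CD33 knockouts and 62, 77.2, 71.2 and 70.2 in TREM2 knockouts (-3.05 ± 0.124, adjusted p = 9.97e-15), with 68 ± 8.59 in 5xFAD and 81.4 ± 10.2 in WT. Slc6a16, a transporter gene 1.70 Mb from Cd33, was at 2.83, 1.89, 1.65 and 2.23 in CD33 knockouts and had 1, 0, 4 and 3 reads in TREM2 knockouts (adjusted p = 5.87e-09). It passed the filter only through the CD33 knockout libraries. For Klk8 and Slc6a16 the TREM2 knockout libraries were at the level of 5xFAD and WT, so the CD33 knockout libraries were the ones that stood apart. Tnfsf9, which encodes the 4-1BB ligand (2.13 ± 0.32, adjusted p = 0.000139), and the angiogenic factor Vegfa (2.11 ± 0.38, adjusted p = 0.000949) had the order of the DAM genes instead, with 5xFAD means of 14.7 and 3.59 RPKM between the knockouts.

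**Figure D3:**
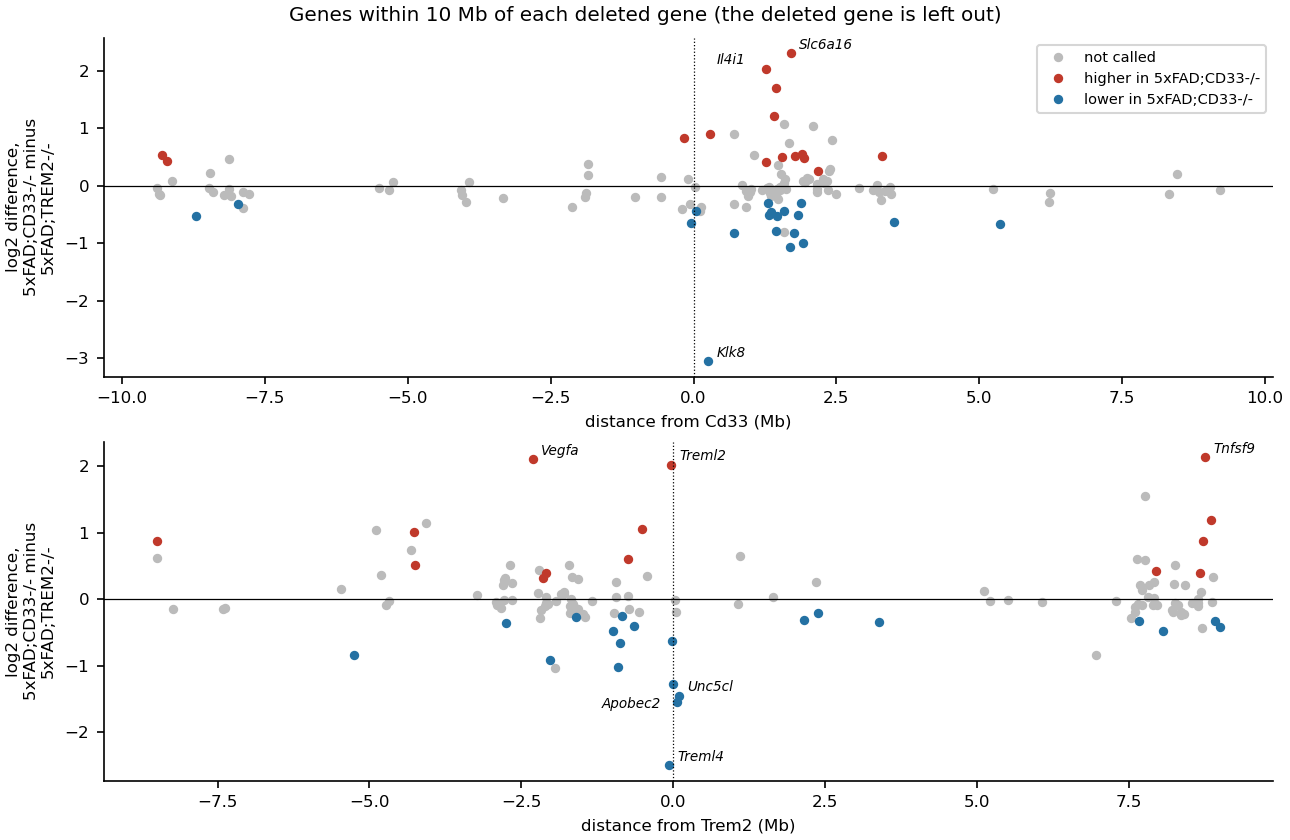
Log2 difference (CD33 knockouts minus TREM2 knockouts) of each tested gene within 10 Mb of Cd33 (top) and Trem2 (bottom) against its distance in Mb, with calls in colour. Klk8 (-3.05) and Slc6a16 (2.31) lie near Cd33, and Treml4 (-2.50) and Treml2 (2.02) next to Trem2; differences from the added 0.5 RPKM are understated for genes near 0.

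Which knockout stood apart was read by setting each against the other 20 libraries of the fit, as a description with no test. Apart from Cd33 and Trem2, 21 genes had all 4 TREM2 knockout libraries outside the range of every other library, 14 above and 7 below. Of these, 20 lay on chromosome 17, that of Trem2, which was 3.19% of the 627 genes tested there, against 0.17% of the 12374 over all chromosomes. The exception was Gm13443 on chromosome 2. For CD33 knockouts the count was 63, with 22 on chromosome 7, that of Cd33 (2.34% of 941 genes tested, against 0.509% over all chromosomes), and the other 41 spread over 16 chromosomes or without a position. These counts include Treml4 for TREM2 knockouts, and Ftl2 and Slc6a16 for CD33 knockouts. Each passed the filter only through that knockout, so its place above all other libraries follows from the filter. Further genes of that kind were not counted. Examples of genes outside the range, chosen after their values were seen, run from 17.7 Mb on one side of Trem2 to 0.101 Mb on the other. Glo1, the glyoxalase gene, was at 8.42, 9.51, 9.98 and 8.6 RPKM in CD33 knockouts and 19.5, 15.8, 19.8 and 17.8 in TREM2 knockouts, with 7.47 to 12.9 in 5xFAD (-0.96 ± 0.123, adjusted p = 1.97e-05). H2-T24, a class I gene 12.3 Mb from Trem2 and 1 of the 12 largest differences, was at 14.2, 13.1, 14.1 and 14.8 against 29.9, 32, 30.5 and 32.2 (-1.12 ± 0.103, adjusted p = 1.28e-07), while its neighbours H2-T23 and H2-T22 went the other way. Tnfrsf21, death receptor 6, was at 77.7, 61.1, 66.5 and 93 against 138, 130.5, 132 and 129.8 (-0.84 ± 0.101, adjusted p = 7.91e-06). Unc5cl was at 0.938, 1.06, 0.957 and 1.02 against 3.34, 3.95, 3.75 and 3.3 (-1.45 ± 0.116, adjusted p = 1.25e-08).

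**Figure D4:**
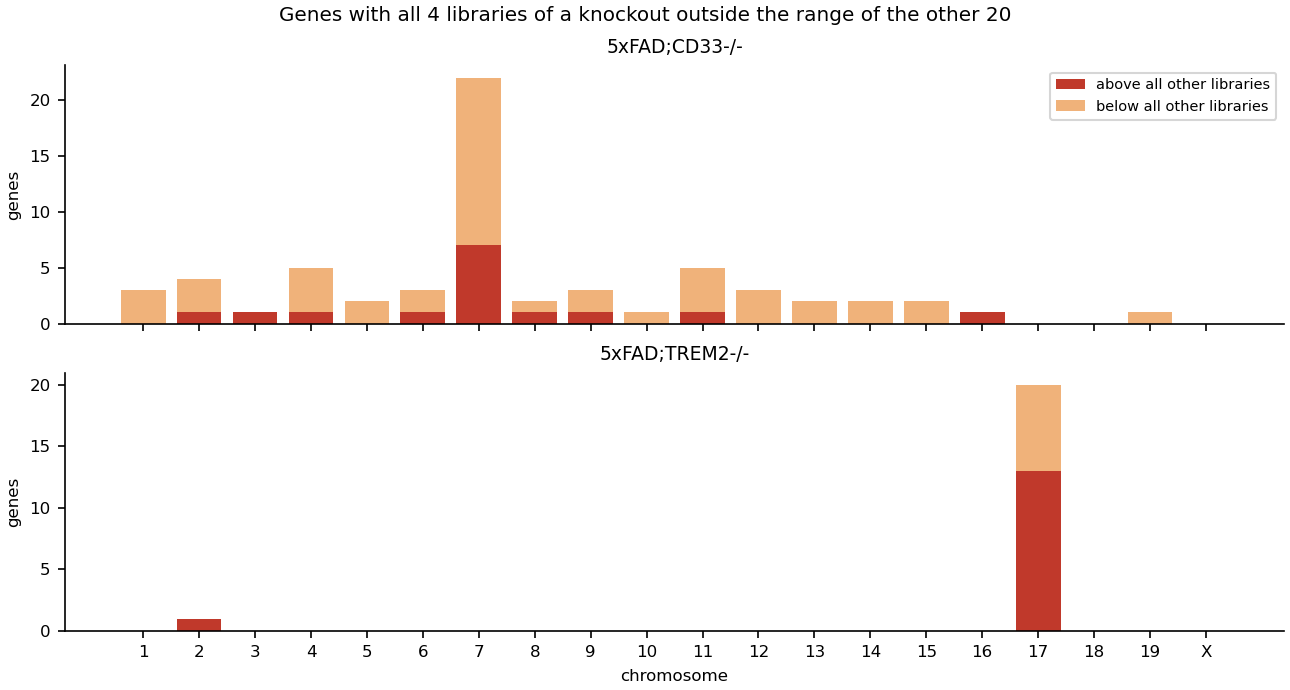
Number of genes per chromosome with all 4 libraries of a knockout above or below all 20 other libraries of the fit, Cd33 and Trem2 left out. For TREM2 knockouts 20 of 21 such genes are on chromosome 17, and for CD33 knockouts 22 of 63 are on chromosome 7. Treml4, Ftl2 and Slc6a16, which passed the filter only through the knockout where they are high, are included.

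Near Cd33 the same pattern held for immune genes. Cd37, a tetraspanin gene of leukocytes 1.69 Mb from Cd33, was at 81.6, 73.8, 69.3 and 95.3 RPKM in CD33 knockouts and 159, 177, 168 and 161 in TREM2 knockouts, with 144 to 181 in 5xFAD (-1.06 ± 0.0811, adjusted p = 5.87e-09). Irf3, a transcription factor of the interferon response, was at 13.2, 12.4, 11.6 and 13.9 against 17.2, 19.4, 19.3 and 18.6 (-0.53 ± 0.0982, adjusted p = 0.00108), and the Fc receptor gene Fcgrt at 126, 129.5, 138 and 140.2 against 86, 97.6, 96.8 and 94.7 (0.51 ± 0.0995, adjusted p = 0.00178). The ferritin light chain gene Ftl1, 1.91 Mb from Cd33, was at 118, 91.9, 90.5 and 133 against 161, 229, 242 and 234 (-0.99 ± 0.16, adjusted p = 0.000264). Ftl2, annotated as a processed pseudogene on chromosome 4, went the other way and was the largest of the 12 differences named in this direction. It was at 39.8, 26.8, 25.4 and 28.1 RPKM in CD33 knockouts, with 531 to 750 reads, and had no read in any TREM2 knockout library. Against the limit of 3 reads per library, 0.169 RPKM, the CD33 knockout mean of 30.0 was at least 178-fold higher (adjusted p = 1.72e-19), a limit that covers counting error only. Ftl2 passed the filter only through the CD33 knockout libraries, and its mean was 0.0367 in 5xFAD. Reads of near-identical ferritin copies may be assigned to either, so the levels of Ftl1 and Ftl2 are uncertain.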

How the data were processed

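RNA of sorted microglia was sequenced from TruSeq Stranded mRNA libraries, per the labels' protocols. The authors deposited RPKM values for 39179 genes in 1 table of all groups at 4 months. Per the submitters' processing notes and the series' design text, the STAR aligner placed reads on mm10 (GRCm38) and HTSeq counted them. A role for edgeR is not stated. Versions, annotation and strand setting: not given in the sources used here. Gene positions come from GENCODE mouse release M21, which held 37693 of the IDs; 433 genes share a symbol with another.

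RPKM times gene length was a whole multiple of 1 step within 0.05 reads for 100% of the values of each library, which gave the read totals. No pair of libraries within a group came below a chi-square of 11.66 per degree of freedom, so none looked like a second sequencing of the same library. These values cannot tell separate preparations of the same animal from separate animals.

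The test on log2(RPKM + 0.5) was that of limma 3.58.1 (R 4.3.3), two-sided, with trend and robust settings, on genes with RPKM of at least 1 in at least 4 of 24 libraries (WT, 5xFAD and both single knockouts, sharing 1 estimate of spread; double knockouts left out). A call was an adjusted p under 0.05. For log2 differences ± gives the standard error, and for mean RPKM the SD. Per-library values are in order of replicate. The log2(RPKM + 0.5) scale understates differences of low genes. WT and 5xFAD levels were not tested. The fit was tested on simulated counts of independent libraries, with the same spread setting for all genes. Differences between single libraries, such as those in endothelial markers, were not part of that simulation, so it does not cover them.

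Genes named were Cd33, Trem2, the 12 largest called differences in each direction (ordinary symbol, at least 2 RPKM on average in 1 of the groups, over 10 Mb from both targets), the 5 largest within 10 Mb, and up to 4 members with the smallest p of each list described. A few genes chosen in this way have no value in the text. The comparison, members and lists were chosen with earlier results of these data known. The alternatives tried changed the pseudocount, the filter, the scaling, the libraries and covariates of the fit, and the values tested; each library was also left out in turn. No interval on counts was needed, since spread between libraries exceeded counting error. Precision is limited by 4 libraries a group.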

Additional observations from a re-analysis of the deposited data

Results flagged for a closer look

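Of 166 sets of 4 values (1 gene in 1 knockout) examined for a sample far from the others, 13 held one; chance gives about 1 in 20. CD33 knockout replicate 4 was the sample in 6 of them. It was below the other 3 for Apoe (1685 RPKM, others from 2746 to 2843), Cst7 (513.2, others from 869.7 to 928.2), Lyz2 (559.6, others from 746.3 to 782.6), Ptgs2 (16.19, others from 41.94 to 46.35) and Egln3 (7.267, others from 21.34 to 23.53), and above them for Gpr165 (6.757, others from 3.831 to 4.316). In all 6 genes its value lay on the side of TREM2 knockouts.

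TREM2 knockout replicate 1 stood apart for Gpr165 (14.74, others from 10.27 to 10.8), Ptger3 (4.192, others from 2.312 to 2.503), Ighj3 (28.52, others from 13.86 to 14.87) and Hpse (0.4216, others from 0.8809 to 0.8853). TREM2 knockout replicate 3 was above the others of its group for Treml4 (3.713, others from 2.835 to 2.933) and H2-T23 (32.19, others from 24.38 to 25.45). CD33 knockout replicate 1 was above the others of its group for H2-T23 (63.3, others from 53.55 to 55.16).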

How the results depend on the processing

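The count of 1970 stayed within 1.5 times, 1570 to 2035, with other pseudocounts, filters and median-ratio scaling, with voom on the recovered reads (1952), with double knockouts in the fit and with a sex term chosen after seeing the data. It moved to 726 with only the 8 libraries in the fit, 3142 with the title number as a term, 525 with the endothelial covariate and 562 without the GAa10 pair (chosen after seeing the data), and ran from 775 to 3076 when 1 library was left out. The causes were not tested. The genotypes share only replicate numbers 1 and 3, whose deviations correlated at 0.165 and 0.01, so these numbers were not taken to pair samples; a replicate block gave 525 calls. Of all 16 pairings across the genotypes, the GAa10 pair had the highest correlation, 0.284. Median-ratio scaling changed the share higher from 42.3% to 51.7%, 928 higher and 867 lower. Of the 83 genes the rule names, 66 stayed called under each alternative that tested them, 17 lost the call under at least 1, 6 under 5 or more, and none changed direction. Ftl2, Slc6a16 and Treml4 could be tested under 15 of the 21 alternatives. How depth limits the comparison was not tested.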
